A study of Homo sapiens with 6 samples.

Results

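Besides the surfactant genes, NKX2-1 acts on genes of cell movement, survival, growth factor signaling and differentiation in lung adenocarcinoma, and 6 of these were followed: MYBPH, LMO3, ROR1, DUSP6, SELENBP1 and HOPX. They were chosen by name as known downstream genes of NKX2-1, and all 6 were found among the 26485 gene symbols of the count tables. The RNA came from A549, a human lung adenocarcinoma cell line. Every library, controls included, was made from A549 cells that had been infected with lentiviral vectors for dCas9-KRAB and for rat Nkx2-1, selected with puromycin (10 ug/ml) for the former and sorted by GFP for the latter. dCas9-KRAB is a Cas9 without nuclease activity joined to the KRAB repressor domain, and the rat Nkx2-1 was driven by the PGK promoter. Into these cells, either the sgRNA control, which has no target, or sgRNA #2, directed at a site that the study places in intron 1 of SFTPB, was transfected (3 libraries per group). Cells without Nkx2-1 were not among the libraries, so the comparison measures the effect of sgRNA #2 on the 6 genes and not their induction by NKX2-1. Whether the cells were a single clone is not given in the sources used here.

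NKX2-1 is a homeodomain transcription factor that sets up the lung epithelium and remains active in many lung adenocarcinomas. In such tumors it maintains the pulmonary program, restrains a gastrointestinal program and has been reported both to limit and to support tumor growth. Its downstream genes include MYBPH, whose product binds non-muscle myosin and the kinase ROCK1 and limits cell movement, LMO3, which encodes a LIM-only co-factor linked to survival, and ROR1, a receptor tyrosine kinase-like protein that sustains survival signaling. DUSP6 encodes the phosphatase that removes the activating phosphates of ERK, SELENBP1 a selenium-binding methanethiol oxidase, and HOPX a small homeodomain protein without DNA binding that marks alveolar type I cells.

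sgRNA #2 is shown because it is the only agent that differed in sequence between the groups. Its target lies on the minus strand of GRCh38 at chr2:85668529-85668551, with the PAM in capitals.
sgRNA #2 target: gggatgggaggggaacacccAGG
Within 1000 bp of the annotated start sites of the 6 genes (GENCODE release 44), the longest run of its PAM-proximal bases before an NGG, on either strand, was 6 bases for MYBPH and SELENBP1, 5 for LMO3, ROR1 and HOPX, and 4 for DUSP6. In windows of 300 bases around RefSeq start sites, the longest run was 5 bases in MYBPH and LMO3, 4 in HOPX, 3 in ROR1 and 2 in DUSP6. Runs of 5 or more were present in 8.34% of all 35116 RefSeq promoter windows of this length. The wider search covered from 1 start site in MYBPH to 31 in LMO3, and no such share was worked out for it. Whether dCas9-KRAB occupied any of these positions was not measured here.

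The sequences upstream of the start sites of MYBPH, LMO3 and DUSP6 are shown. In other experiments the study targeted NKX2-1-bound sites of the first 2 genes, and the third was the member that differed between the groups. The study places the bound sites of LMO3 in intron 2 and those of MYBPH in upstream regions and introns. Whether the stretches shown hold any of these sites was not checked. Each is 250 bases (RefSeq, GRCh38.p14, minus strand, read 5′ to 3′), with the core of the NKX2-1 motif, CAAG or its reverse complement CTTG, in capitals. They lie at chr1:203175827-203176076, chr12:16606163-16606412 and chr12:89352502-89352751.
MYBPH: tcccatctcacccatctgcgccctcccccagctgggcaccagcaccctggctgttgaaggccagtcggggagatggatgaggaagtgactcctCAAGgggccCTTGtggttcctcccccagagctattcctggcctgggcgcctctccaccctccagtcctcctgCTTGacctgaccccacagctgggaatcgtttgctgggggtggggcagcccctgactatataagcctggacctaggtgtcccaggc
LMO3: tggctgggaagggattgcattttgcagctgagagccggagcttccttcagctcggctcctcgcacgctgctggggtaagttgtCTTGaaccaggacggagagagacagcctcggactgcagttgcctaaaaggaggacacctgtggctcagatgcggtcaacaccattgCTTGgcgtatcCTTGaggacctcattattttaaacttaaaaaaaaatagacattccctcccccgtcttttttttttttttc
DUSP6: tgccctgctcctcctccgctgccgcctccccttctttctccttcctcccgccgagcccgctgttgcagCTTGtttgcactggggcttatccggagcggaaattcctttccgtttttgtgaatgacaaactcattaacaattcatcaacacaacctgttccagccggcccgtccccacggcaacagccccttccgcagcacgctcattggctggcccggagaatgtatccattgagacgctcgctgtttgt
In the full window of 300 bases, from 250 before to 50 after the start, there were 3 matches in MYBPH, 4 in LMO3 and 2 in DUSP6. The longer form CTCAAG, which contains the core, was found once in the MYBPH and once in the LMO3 window on either strand. Of all RefSeq promoter windows, 86% held at least 1 CAAG or CTTG, 37% at least 3 and 19% at least 4, with a median of 2, and 12.4% held CTCAAG. ROR1 had 2 matches, each of the pair of HOPX windows had 3, and the 4 other LMO3 windows had 1, 1, 1 and 3. SELENBP1 was not matched to a RefSeq promoter window. A match of these letters is a description and not a bound site.

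Reads on genes numbered 6341459, 7068999 and 7584611 for replicates 1 to 3 of the sgRNA control, and 7058274, 6598372 and 6047554 for those of sgRNA #2. Values are given as CPM, the counts scaled to library size with TMM factors, and a detection floor of 3 counts corresponded to 0.396 to 0.496 CPM. This floor covers counting error only. Of the genes, 13356 had at least 10 counts in at least 3 libraries and were tested by quasi-likelihood in edgeR. P-values were adjusted over all of them by the method of Benjamini and Hochberg, and all 6 members were among these genes. A gene was called where it had an adjusted p under 0.05 and a log2 fold change of 1 or more in either direction.

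Of 6 epithelial markers, 5 were above the detection floor, with KRT8 the most abundant (mean 1696 CPM) and summed levels of 3384 to 4552 CPM per library. EPCAM was low, with 8.41 CPM with the sgRNA control and 8.01 with sgRNA #2. KRT19 was under the floor on average, with 0 to 4 counts per library. Fibroblast markers summed to 6.16 to 10.0 CPM, nearly all of it COL1A1, with COL1A2 and DCN at 0, and no endothelial marker exceeded the floor on average, with CDH5 at 0. Of the leukocyte markers, PTPRC and CD3E were at 0, and the sum of 65.2 to 71.6 CPM was nearly all CD68, the gene of a lysosomal protein that other cells express too. Of the lung genes, NAPSA and CEACAM6 were measured, while the secretoglobin genes SCGB1A1, SCGB3A1 and SCGB3A2 did not reach the count minimum. Of 11 alveolar type I genes, 7 reached it, AGER among them with 5.47 CPM with the sgRNA control and 5.97 with sgRNA #2, and AQP5, PDPN, CLIC5 and SPOCK2 did not. As the target of sgRNA #2, SFTPB went from 417 ± 9.92 CPM with the sgRNA control to 6.72 ± 1.29 with sgRNA #2 (SD, n = 3 each). The row of human NKX2-1 held 59, 85 and 71 counts with the sgRNA control and 64, 46 and 56 with sgRNA #2, or 9.396, 12.045 and 9.335 CPM against 9.104, 6.909 and 9.328. The groups touched without overlapping, and this row was at -0.28 on the log2 scale (SE 0.179, 95% interval -0.66 to 0.09, edgeR adjusted p = 0.627). The rat gene has no row of its own. The study describes the parent cell line as not expressing its own copy of this gene. Whether the reads of the human row came from that copy or from the rat vector was not tested. The row is therefore not read as a measure of either. All are bulk samples, in which fewer cells expressing a gene and less RNA per cell cannot be told apart.

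Among the 6 genes, DUSP6 was the only one whose expression differed between the groups at an adjusted p under 0.05, and it was higher with sgRNA #2. None of the 6 was called at both cut-offs, as were 0.719% of all tested genes (0.0299% higher and 0.689% lower with sgRNA #2), and 1 of 6 had an adjusted p under 0.05, as did 2.69% of all tested genes. The median log2 fold change of the 6 was 0.01, beside 0.00 for all tested genes. With the replicate number as a block, again 1 of 6 had an adjusted p under 0.05, beside 10.0% of all tested genes (3.97% higher and 6.06% lower), and 0 of 6 were called, beside 0.913%. These counts of 0 and 1 were the same in all 12 alternative fits, and the genes with an unadjusted p under 0.05 in edgeR were also 1 of 6, against 11.1% of all.

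**Figure D1:**
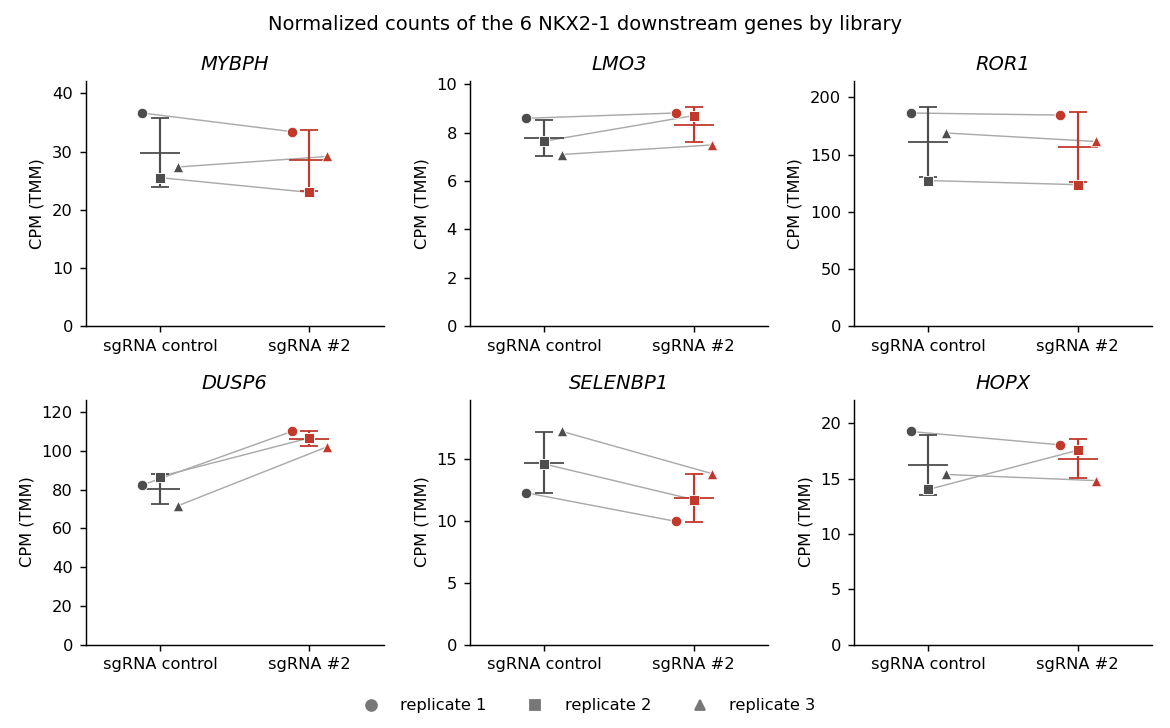
CPM (TMM-scaled counts, axes from 0) of the 6 genes in each library, with circles, squares and triangles for replicates 1, 2 and 3, grey lines joining libraries of the same number, and bars for the mean ± SD of 3 libraries. DUSP6 lies between 71.7 and 86.7 CPM with the sgRNA control and between 102 and 110 CPM with sgRNA #2, while the groups overlap for the other 5 genes.

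The MYBPH level differed between the groups by less than the spread between libraries. It had 36.6, 25.5 and 27.3 CPM in sgRNA control replicates 1 to 3, from 230, 180 and 208 counts. With sgRNA #2 it had 33.4, 22.98 and 29.2 CPM, from 235, 153 and 175 counts. The groups overlapped widely, and in both of them replicate 1 was highest and replicate 2 lowest. The means were 29.8 ± 5.96 and 28.5 ± 5.25 CPM (SD, n = 3 each). The log2 fold change was -0.06 (SE 0.145, 95% interval -0.36 to 0.25, edgeR adjusted p = 0.938), so a decrease of the size of the cut-off lay outside the interval. Its sign was not stable, with 0.11 when sgRNA control replicate 1 was left out and 0.08 without sgRNA #2 replicate 2. The gene (ENSG00000133055) lies on the minus strand at chr1:203167811-203175826 and overlaps no other annotated gene.

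LMO3 had few reads in either group. Its counts were 54, 54 and 54 with the sgRNA control and 62, 58 and 45 with sgRNA #2, which corresponded to 8.60, 7.65 and 7.10 CPM and to 8.82, 8.71 and 7.50 CPM. The ranges overlapped, although within each replicate number the sgRNA #2 library was slightly higher, by 0.04, 0.19 and 0.08 on the log2 scale. From means of 7.78 ± 0.759 and 8.34 ± 0.735 CPM (SD, n = 3 each), the log2 fold change was 0.11 (SE 0.174, 95% interval -0.26 to 0.48, edgeR adjusted p = 0.895). The spread of LMO3 (CV 9.75% with the sgRNA control and 8.81% with sgRNA #2) was below the 13.6% and 13.5% that counting alone gives on average at this depth. LMO3 (ENSG00000048540) lies at chr12:16548372-16610594 on the minus strand, with MGST1 and a further gene annotated on the opposite strand. Since the strand setting of the counting is not given in the sources used here, reads of overlapping genes could not be told apart.

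ROR1 varied with the replicate number and hardly with the sgRNA. It had 186, 127 and 169 CPM with the sgRNA control and 185, 124 and 161 CPM with sgRNA #2, from 823 to 1297 counts. Library by library, the groups followed each other closely, since same-numbered libraries differed by only -0.01, -0.04 and -0.06 on the log2 scale while the replicate numbers differed much more. The means were 161 ± 30.3 and 157 ± 30.7 CPM (SD, n = 3 each). The log2 fold change was -0.04 (SE 0.128, 95% interval -0.31 to 0.23, edgeR adjusted p = 0.951), and its sign turned without sgRNA control replicate 1 (0.08), without sgRNA #2 replicate 2 (0.11) and without sgRNA control replicate 3 (0.0005). ROR1 (ENSG00000185483) spans chr1:63774017-64181498 on the plus strand and overlaps ROR1-AS1, an antisense RNA gene, and other small genes on the opposite strand.

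DUSP6 was higher in every sgRNA #2 library than in any sgRNA control library. The control libraries had 82.3, 86.7 and 71.7 CPM (517, 612 and 545 counts). The sgRNA #2 libraries had 110, 107 and 102 CPM (773, 710 and 613 counts). The groups did not overlap, as was also so in 15.6% of all tested genes (6.77% with sgRNA #2 higher and 8.83% with it lower). The means were 80.2 ± 7.75 and 106 ± 3.94 CPM (SD, n = 3 each), a fold of 1.33 (95% interval 1.18 to 1.49). On the log2 scale the change was 0.41 (SE 0.0776, edgeR adjusted p = 0.00543), which ranked 161 of the 13356 genes by p-value and stood below the fold change cut-off. It was positive in 3 of 3 same-numbered pairs (0.42, 0.30 and 0.51). An exact permutation test of DUSP6 alone gave a two-sided p = 0.10, which is the lowest that a design of 3 against 3 can reach. Across the 12 alternative fits the log2 fold change lay between 0.33 and 0.47 and the adjusted p between 1.04e-10 and 0.0422. DUSP6 (ENSG00000139318) lies at chr12:89347235-89352501 on the minus strand, with a long non-coding RNA gene annotated on the opposite strand.

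SELENBP1 had the largest difference in the other direction, which did not pass the test. Its levels were 12.3, 14.6 and 17.2 CPM with the sgRNA control (77, 103 and 131 counts) and 9.96, 11.7 and 13.8 CPM with sgRNA #2 (70, 78 and 83 counts). The groups overlapped, but replicate 1 was lowest and replicate 3 highest in both. The sgRNA #2 library was the lower of each same-numbered pair by -0.30, -0.32 and -0.32 on the log2 scale. At these counts, counting alone gives a CV of 9.82% with the sgRNA control and 11.4% with sgRNA #2. How closely the pairs agreed is therefore not read as precision. The log2 fold change was -0.33 (SE 0.164, 95% interval -0.67 to 0.02, edgeR adjusted p = 0.486). When libraries were blocked by replicate number, the interval was -0.58 to -0.05, with an unadjusted p of 0.0206 and an edgeR adjusted p of 0.137, also past no threshold after adjustment. Without sgRNA control replicate 3 the log2 fold change was -0.20, and without sgRNA #2 replicate 1 it was -0.21 (edgeR adjusted p = 0.838 and 0.827). The gene (ENSG00000143416) lies at chr1:151364304-151372707 on the minus strand and overlaps no other annotated gene.

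HOPX did not separate the groups in either direction. It had 19.3, 14.03 and 15.4 CPM with the sgRNA control (121, 99 and 117 counts) and 18.1, 17.6 and 14.8 CPM with sgRNA #2 (127, 117 and 89 counts). The pairs differed in sign, at -0.09, 0.32 and -0.05 on the log2 scale. The means were 16.2 ± 2.72 and 16.8 ± 1.75 CPM (SD, n = 3 each), with a log2 fold change of 0.06 (SE 0.143, 95% interval -0.24 to 0.37, edgeR adjusted p = 0.929). Without sgRNA control replicate 2 it was -0.03. HOPX (ENSG00000171476) lies at chr4:56647989-56681877 on the minus strand, with a further gene annotated on the same strand.

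**Figure D2:**
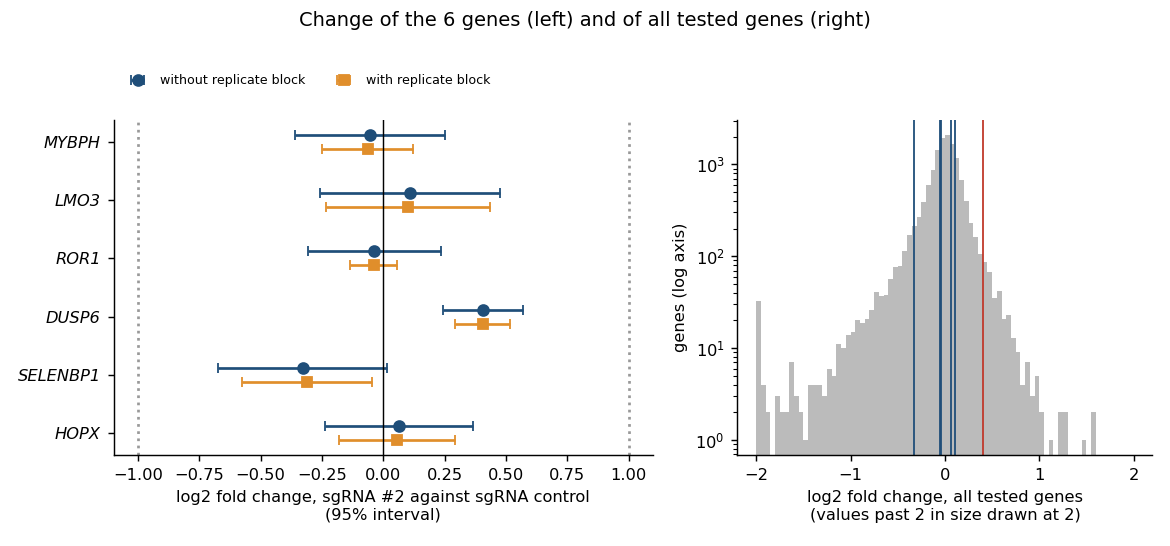
Left, log2 fold change (sgRNA #2 against sgRNA control) of the 6 genes with 95% intervals from edgeR, without (circles) and with (squares) the replicate number as a block, and dotted lines at the cut-offs of 1 in size. Right, the log2 fold changes of all 13356 tested genes on a log count axis, with lines at the 6 members (DUSP6 in red). All 6 intervals lie within the cut-offs, and DUSP6, at 0.41, is the only member whose intervals both exclude 0, on the positive side, while that of SELENBP1 does so with the block only, on the negative side.

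Compared between genes, levels were expressed as RPKM, the CPM divided by the union of annotated exons in kilobases. With the sgRNA control, ROR1 had 23.9 ± 4.52 RPKM, DUSP6 20.8 ± 2.01, MYBPH 16.4 ± 3.28, SELENBP1 4.23 ± 0.714, HOPX 2.10 ± 0.352 and LMO3 0.778 ± 0.0759 (SD, n = 3 each). In this order ROR1 overlapped with DUSP6 and DUSP6 with MYBPH over the libraries, while SELENBP1, HOPX and LMO3 each lay wholly below the gene before. With sgRNA #2 the first places were exchanged. DUSP6 led with 27.5 ± 1.02 RPKM, followed by ROR1 with 23.3 ± 4.58 and MYBPH with 15.7 ± 2.89 (SD, n = 3 each), and only DUSP6 and ROR1 overlapped. The order rests on the length used, because the exon union is 7730 bases in HOPX and 10002 in LMO3 while their longest coding sequences are 336 and 501 bases. Divided by coding length instead, the control order was DUSP6 (70.2), ROR1 (57.2), HOPX (48.3), MYBPH (20.8), LMO3 (15.5) and SELENBP1 (9.53), so 0 of 6 genes kept their place.

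**Figure D3:**
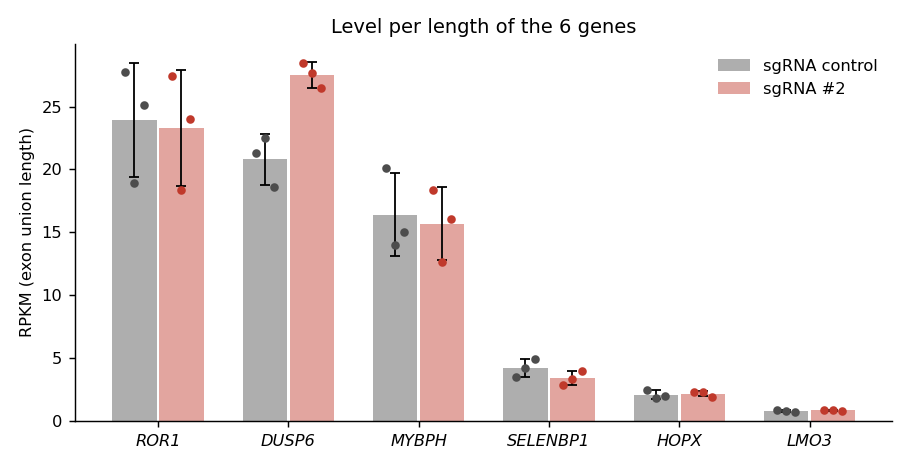
Level of the 6 genes in RPKM (CPM per kilobase of the exon union), as the mean of 3 libraries per group with SD bars and each library as a point. ROR1, DUSP6 and MYBPH lie between 12.6 and 28.5 RPKM in all libraries, and SELENBP1, HOPX and LMO3 below 5.

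The members differed in how their variation was divided between the replicate number and the sgRNA. In ROR1, 99.1% of the variance of log2 CPM over the 6 libraries went with the replicate number and 0.72% with the group. For MYBPH these shares were 92.2% and 1.95%, for LMO3 75.9% and 17.2%, for HOPX 64.4% and 3.22%, and for SELENBP1 61.4% and 38.5%. DUSP6 was the reverse, with 84.4% by group and 11.8% by replicate number. The medians over 10809 genes were 49.2% by replicate number and 16.6% by group. The spread of LMO3 within groups was below that of counting alone, so its shares cannot be told from counting noise. The shares of SELENBP1 rest on 70 to 131 counts per library and are read with the same caution as its pairs. MYBPH and ROR1 shared the order of the libraries, highest in replicate 1 and lowest in replicate 2 of both groups, and their log2 CPM correlated with r = 0.909 over 6 libraries, of which the same-numbered ones share whatever the number stands for. LMO3 and SELENBP1 had r = -0.935 over the same 6 libraries. For the same reason as its shares, this r of LMO3 is not read as a relation. The dispersion between libraries, as the biological coefficient of variation in edgeR, ranked ROR1 and MYBPH at percentiles 87.5 and 86.5 of all tested genes and DUSP6 at percentile 30.3.

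The genes whose profile over the 6 libraries was most like that of each member were taken from 10808 genes with at least 50 counts per library on average, as a description. The r that choosing the highest of so many gives by itself was not worked out. MYBPH was followed most closely by ZNF114 (r = 0.997), USP1 (r = 0.995) and RBM15B (r = 0.991). LMO3 was followed by ZNF721 (r = 0.995), CTXN1 (r = 0.995) and FAM111B (r = 0.989), and ROR1 by TRERF1 (r = 0.992), PRR11 (r = 0.989) and LRRC40 (r = 0.989). For DUSP6 they were TRIML2 (r = 0.986), LONRF2 (r = 0.985) and the pseudogene UBE2MP1 (r = 0.985), which differed between the groups by 0.80, 0.32 and 0.17 on the log2 scale. SELENBP1 was matched by CP (r = 0.992), the gene of the copper carrier ceruloplasmin, by MPC2 (r = 0.987) and by the pseudogene DSTNP2 (r = 0.987). HOPX was matched by PPP3CC (r = 0.991), ITGA5 (r = 0.991) and DRG1 (r = 0.989).

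Around DUSP6, 4 of 17 genes that ERK activity switches on or that feed back on it rose with sgRNA #2 at an adjusted p under 0.05, and 0 fell. Of all tested genes, 0.464% rose and 2.22% fell by this threshold. The list was chosen with earlier results of these data known, so the count is a description and not an independent test. The median of the 17 was 0.13 on the log2 scale, and 11 of them were above 0. ETV5, an ETS transcription factor of this output, had 61.5, 64.0 and 65.6 CPM with the sgRNA control and 81.4, 84.9 and 83.1 with sgRNA #2, a log2 fold change of 0.38 (edgeR adjusted p = 0.00458). PHLDA1, a pleckstrin homology-like protein induced by growth factors, had 183, 168 and 201 CPM against 252, 227 and 298, a log2 fold change of 0.49 (edgeR adjusted p = 0.00375). In both genes the groups did not overlap, and both passed in 6 of 6 fits that left out 1 library. ETV4, the close relative of ETV5, had 42.0, 48.9 and 48.8 CPM against 57.5, 58.3 and 64.5, a log2 fold change of 0.36 (edgeR adjusted p = 0.0318). The immediate early gene EGR1, which had only 19 to 39 counts per library, was at 3.03, 2.83 and 2.76 CPM with the sgRNA control and 5.55, 5.26 and 6.33 CPM with sgRNA #2, a log2 fold change of 0.99 (edgeR adjusted p = 0.0229). ETV4 and EGR1 each passed in only 1 of 6 fits that left out 1 library, and DESeq2 gave adjusted p-values of 0.0527 and 0.112, so 2 of the 17 passed there.

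**Figure D4:**
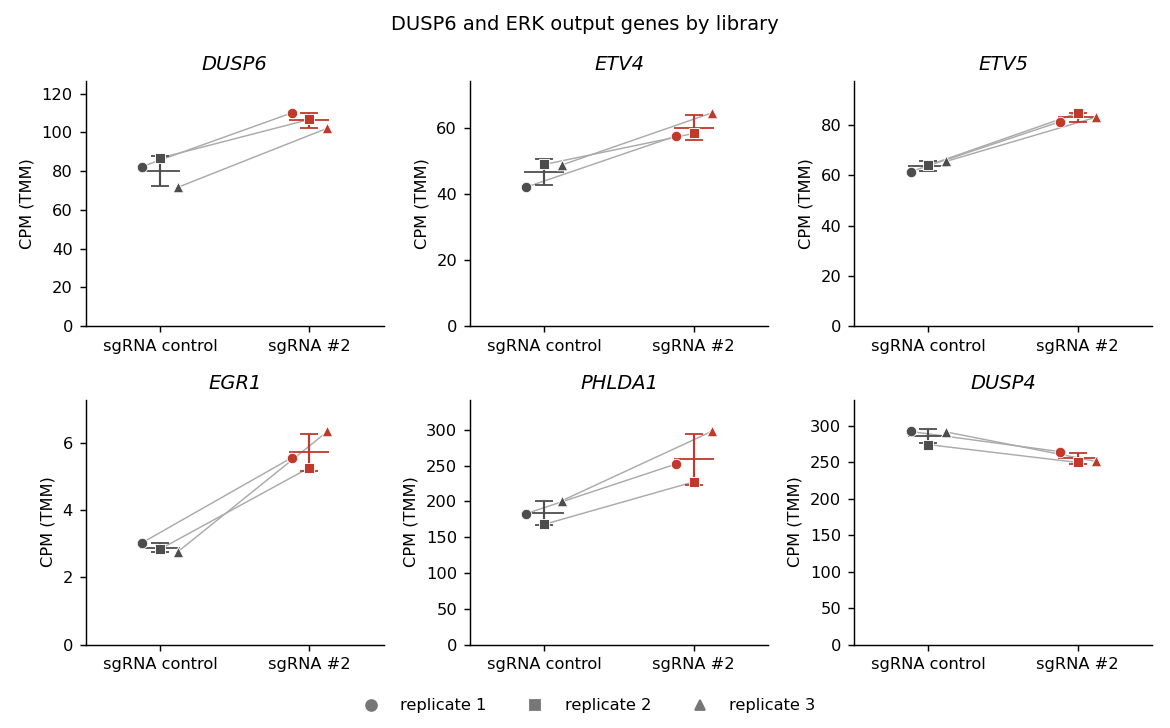
CPM (TMM-scaled, axes from 0) of DUSP6, of ETV4, ETV5, EGR1 and PHLDA1, and of DUSP4 in each library, with symbols for the replicate numbers and bars for the mean ± SD of 3 libraries. In the first 5 panels every sgRNA #2 library lies above every control library, and DUSP4 lies at 249 to 264 CPM with sgRNA #2 against 274 to 292 with the sgRNA control.

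The other ERK genes lay on both sides of 0. Of the Sprouty genes, feedback inhibitors of receptor tyrosine kinases, SPRY2 and SPRY4 were at 0.32 and 0.28 on the log2 scale (edgeR adjusted p = 0.365 and 0.276) and SPRY1 was at -0.27 (edgeR adjusted p = 0.711). CCND1, the cyclin D1 gene and the most abundant of the list, had 1007 CPM with the sgRNA control and 923 with sgRNA #2, a log2 fold change of -0.13 (edgeR adjusted p = 0.693). DUSP4, a nuclear phosphatase of ERK, had 286 ± 10.2 CPM against 255 ± 8.15 (SD, n = 3 each), opposite to DUSP6, with a log2 fold change of -0.16 (edgeR adjusted p = 0.268). With the replicate block, DUSP4 and CCND1 passed as lower (edgeR adjusted p = 0.00481 and 0.0356), so that 4 of the 17 were higher and 2 lower. Of the MAP kinase phosphatases other than DUSP6, 7 of 9 were tested and 0 passed, with a median of 0.13 on the log2 scale. DUSP1, which acts on p38 and JNK as well as ERK, had 169 ± 10.9 CPM against 200.1 ± 18.3 (SD, n = 3 each). The log2 change of DUSP1 was 0.24 (edgeR adjusted p = 0.125, and 1.87e-05 with the replicate block). ERK phosphorylation was not measured in these cells.

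Among the other NKX2-1 downstream genes that the study assayed, 1 of 5 was higher (SFTPA1) and 2 were lower (SFTPB and LAMP3), with CD274 and SFTPA2 at 0.32 and 0.35 on the log2 scale and past the threshold only with the replicate block (edgeR adjusted p = 0.00445 and 0.0176). DUSP6 (0.41) and SFTPA1 (0.47) were both higher with sgRNA #2. Of the NKX2-1-dependent lung epithelial genes outside surfactant, 4 of 10 were tested and 0 passed. CEACAM6, a cell adhesion gene of airway epithelium, was the most abundant with 2082 CPM against 2210 (log2 fold change 0.09, edgeR adjusted p = 0.714), and the aspartic protease gene NAPSA had 39.2 against 39.9 CPM (0.01, edgeR adjusted p = 0.984).

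Gastrointestinal genes, which NKX2-1 restrains in lung adenocarcinoma, mostly did not reach the count minimum in these cells, and 3 of 13 were tested. HNF4A and MUC5AC had at least 34 counts in every library and were called at both cut-offs as lower with sgRNA #2. HNF4A, a transcription factor of gut and liver epithelium, had 107, 111 and 111 CPM with the sgRNA control and 52.2, 49.6 and 56.5 with sgRNA #2, a log2 fold change of -1.06 (SE 0.0739, edgeR adjusted p = 4.86e-08). The gastric mucin gene MUC5AC had 8.60, 21.3 and 15.4 CPM against 5.12, 6.91 and 5.66, with a log2 fold change of -1.37 (edgeR adjusted p = 0.00522). VIL1, which encodes the microvillus protein villin, had only 11, 27 and 15 counts against 6, 6 and 4 and reached the count minimum through the control libraries alone, so that its direction was favoured by the filter. Its log2 fold change was -1.62 (edgeR adjusted p = 0.0478, DESeq2 adjusted p = 0.167). It passed in 0 of the 3 fits without 1 library in which it was still tested. TFF1, TFF2, TFF3 and GKN1 were at 0 in every library, and CDX2, PDX1, MUC6, GKN2, LGALS4 and CTSE did not reach the count minimum.

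**Figure D5:**
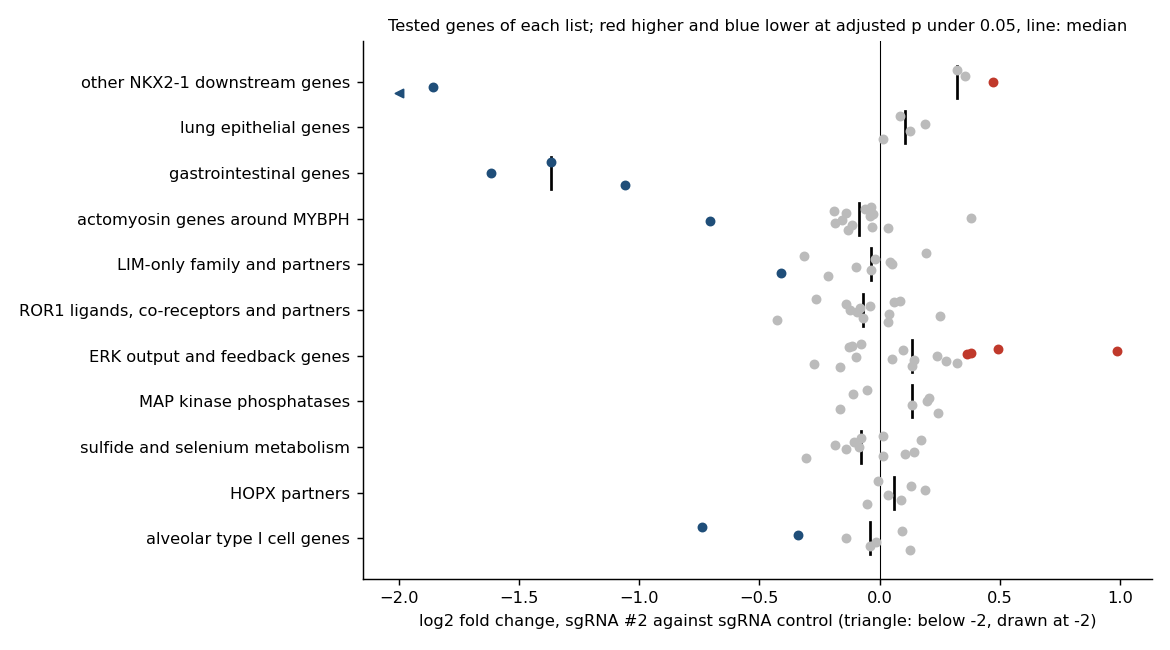
Log2 fold change (sgRNA #2 against sgRNA control) of each tested gene of 11 lists, with a vertical line at the list's median, red for genes higher and blue for genes lower at an adjusted p under 0.05, and a triangle for SFTPB, drawn at the edge of the axis. The ERK list holds 4 genes to the right, the 3 gastrointestinal genes lie between -1.62 and -1.06, and most genes of the other lists lie near 0. The lists were chosen with earlier results of these data known. The gene at -1.62, VIL1, reached the count minimum through the control libraries alone.

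Of the genes that work with MYBPH in actomyosin contraction, most did not pass the test. Of 14 tested of 18, 1 was lower and 0 were higher, with a median of -0.09 on the log2 scale. This gene was MYH14, a non-muscle myosin heavy chain, with 11.5, 13.7 and 9.86 CPM against 7.40, 7.66 and 6.33 and a log2 fold change of -0.70 (edgeR adjusted p = 0.0397, DESeq2 adjusted p = 0.106, past the threshold in 1 of 6 fits without 1 library). MYH9, the main non-muscle myosin here, had 1041 CPM against 962 (edgeR adjusted p = 0.618), and the actin-severing cofilin gene CFL1 1037 against 995 (edgeR adjusted p = 0.826). ROCK1, the kinase that MYBPH binds, had 41.6 against 38.0 CPM (edgeR adjusted p = 0.708). With the replicate block, MYH10 and MYL6 were lower as well, at -0.18 and -0.16 on the log2 scale (edgeR adjusted p = 0.00494 and 0.00819).

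In the LIM-only family, LMO4 was lower with sgRNA #2 while LMO3 was not. LMO4, which like LMO3 bridges transcription factors through LDB1, had 31.7, 29.5 and 32.2 CPM with the sgRNA control and 25.3, 22.98 and 21.8 with sgRNA #2. Its log2 fold change was -0.41 (edgeR adjusted p = 0.0438, DESeq2 adjusted p = 0.139), and it passed in 0 of 6 fits without 1 library. It was the only gene to pass of 9 tested of 15, whose median was -0.04 on the log2 scale. The difference between the paralogs was not tested. TCF12 and TCF3, the most abundant of the partners, had 108 against 112 CPM and 90.6 against 84.7 CPM (edgeR adjusted p = 0.895 and 0.710).

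Of the ligands, co-receptors and partners of ROR1, 13 of 16 were tested and 0 passed, with 0 at an unadjusted p under 0.05 and a median of -0.07 on the log2 scale. WNT5A, its ligand, had 7 to 11 counts per library and did not reach the count minimum, and its paralog ROR2 had 0 to 4. CAV1 and CAVIN1, caveolar proteins that ROR1 stabilizes, had 934 against 909 CPM and 852 against 773 CPM (edgeR adjusted p = 0.919 and 0.537). CAVIN1 is listed under its older symbol PTRF. With the replicate block, CAVIN1 and ERBB3, a receptor that ROR1 pairs with, passed as lower at -0.14 and -0.26 on the log2 scale (edgeR adjusted p = 0.0129 and 6.56e-04). MET and EGFR, further receptors of this circle, were at 0.06 and 0.08 on the log2 scale (edgeR adjusted p = 0.874 and 0.733).

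Sulfide and selenium metabolism around SELENBP1 gave 0 genes past the threshold of 11 tested of 12, with 0 at an unadjusted p under 0.05 and a median of -0.08 on the log2 scale. TXNRD1, a selenoprotein reductase, had 2509 against 2532 CPM (edgeR adjusted p = 0.968), and the glutathione peroxidase GPX2 871 against 810.2 CPM (edgeR adjusted p = 0.661). GPX1, another selenium-dependent peroxidase, was lower only with the replicate block (-0.18 on the log2 scale, edgeR adjusted p = 0.00464). CBS was at 0 in every library. HOPX partners gave 0 of 6, again with 0 at an unadjusted p under 0.05 and with a median of 0.06. SRF, the factor that HOPX restrains in the heart, had 73.9 against 71.2 CPM (edgeR adjusted p = 0.884), and HDAC2 63.4 against 67.3 CPM (edgeR adjusted p = 0.756).

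For the alveolar type I program that HOPX marks, 7 of 11 genes were tested, 2 were lower and 0 higher, with a median of -0.04 on the log2 scale. EMP2, a membrane protein abundant in type I cells, had 225, 214 and 221 CPM with the sgRNA control and 173, 165 and 184 with sgRNA #2, a log2 fold change of -0.34 (edgeR adjusted p = 0.00548) that passed in 6 of 6 fits without 1 library. AKAP5, an anchor of protein kinase A, was less certain, with 9.56, 9.21 and 9.99 CPM against 6.40, 4.66 and 6.16 and a log2 fold change of -0.74 (edgeR adjusted p = 0.0370, DESeq2 adjusted p = 0.131, in 0 of 6 fits without 1 library). CAV1 and CAV2, also typical of these cells, had log2 fold changes of -0.04 and -0.01 (edgeR adjusted p = 0.919 and 0.973). The epithelial cadherin gene CDH1 was lower by a similar amount to EMP2, with 220, 247 and 248 CPM against 187, 194 and 184 and a log2 fold change of -0.34 (edgeR adjusted p = 0.00728). KRT8 was at -0.13 on the log2 scale (edgeR adjusted p = 0.684, and 0.0235 with the replicate block). KRT7, KRT18 and EPCAM were at -0.05, -0.04 and -0.08 (edgeR adjusted p = 0.924, 0.938 and 0.931) and did not pass with the block either. The summed epithelial markers overlapped, at 3585 to 4552 CPM with the sgRNA control and 3384 to 4164 with sgRNA #2. In each same-numbered pair the sgRNA #2 library had the lower sum (3749 and 3533, 4552 and 4164, 3585 and 3384 CPM), which was not tested.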

How the data were processed

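RNA-seq libraries were grouped by the treatment given in the sample labels (3 with sgRNA #2, 3 with the sgRNA control). The values the authors deposited are counts, not normalized, for each gene symbol. The submitters' processing notes name Trim Galore, Bowtie2 2.3.3.1, SAMtools, Picard, HTSeq and hg38, and the annotation and strand setting are not given in the sources used here. Reads outside genes (19.7 to 21.1%) and ambiguous reads (2.61 to 2.75%) were left out. Libraries of a group differed by more than sampling noise (chi-square per degree of freedom 2.73 to 3.61).

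Counts were analysed in R 4.3.3 with edgeR 4.0.16 (TMM, quasi-likelihood test, Benjamini-Hochberg adjustment over 13356 genes), after the script was tested on simulated data. Alternatives were DESeq2 1.42.0, RLE factors, total counts, other count filters, the replicate number as a block and leaving out each library. The replicate numbers come from the sample titles. Deviations from group means correlated within all 3 same-numbered pairs (r = 0.416, 0.400 and 0.423 over 10809 genes), so the numbers were taken to pair the libraries. The main edgeR fit did not use this pairing, which entered the tests only as the replicate block among the alternatives. Named genes were the 6 members, from each list every gene with an adjusted p under 0.05 and the 2 most abundant tested genes, NKX2-1, SFTPB, and the 3 genes most like each member. Other genes named, such as AGER, EPCAM, KRT19, ROCK1, SPRY1, SPRY2, SPRY4, WNT5A, MET and EGFR, were chosen after their values were seen. The members and lists were chosen with earlier results of these data known. Coordinates are from GENCODE release 44 (GRCh38), and promoter windows from RefSeq (5 of 6 members matched). The figures were drawn with matplotlib 3.10.9.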

Additional observations from a re-analysis of the deposited data

How the results depend on the processing

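DUSP6 (0.33 to 0.47), SELENBP1 (-0.45 to -0.20) and LMO3 (0.04 to 0.18) kept the sign of their log2 fold change and their side of the threshold in all 12 alternative fits. MYBPH turned to 0.11 without sgRNA control replicate 1 and to 0.08 without sgRNA #2 replicate 2 (range -0.19 to 0.11 over the fits without 1 library). ROR1 turned to 0.08 without sgRNA control replicate 1, 0.11 without sgRNA #2 replicate 2 and 0.0005 without sgRNA control replicate 3 (range -0.18 to 0.11), and HOPX to -0.028 without sgRNA control replicate 2 (range -0.03 to 0.20). The cause was not tested, and none of these passed a threshold. Of all genes, 96 were called, 63 when 10 counts were required in every library, which left fewer genes to test, and 65 to 94 without 1 library. More were called without a count filter (127) and with the replicate block (122). At an adjusted p under 0.05 alone there were 359 genes, 583 without a count filter, 1339 with the replicate block and 224 to 327 without 1 library. With the block and without a filter, the prior degrees of freedom were infinite, unlike in the fit reported, so those p-values rest on the trended dispersion. The block changed the call of none of the 6 members, and among the list genes tested it changed only the calls already given with it. With the sgRNA control, the order of the levels kept 0 of 6 places with coding length and all 6 with the longest transcript. With sgRNA #2, the longest transcript put HOPX (5.25 RPKM) before SELENBP1 (4.17 RPKM). Under coding length, DUSP6 (92.9 RPKM) and ROR1 (55.7 RPKM) stayed first and second with sgRNA #2, while the other members changed places.

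Of 132 counts of list genes under the alternatives, 100 stayed within 1.5 times, 7 moved up and 25 down. The ERK list had 4 genes past the threshold, 2 under DESeq2, 2 to 3 without 1 library and 6 with the replicate block. LMO3 and the genes near the count minimum rest on few reads. The study describes the triplicates of each group as biologically independent, while the labels do not name separate cultures, and p-values measure the spread between these libraries.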
